A study of Mus musculus with 6 samples.

Results

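Genes of the brain vessel wall were examined in whole brainstems of wild type (WT) and Rag1-/- mice. The 40 genes were taken from a list of 29 endothelial and 11 mural symbols, by their rows in the deposited table, if their mean reached 0.1 CPM (counts per 1000000 reads of the library). All 40 of the 40 were in the table of 18058 genes and passed that minimum. The WT group held 3 C57BL/6J mice. The other group held 3 mice of the strain B6.129S7-Rag1tm1Mom/J, with a germline knockout of Rag1 that leaves the animals without mature T and B cells. All mice were 1 month old, and each library came from 1 snap-frozen brainstem. The libraries allow brainstem transcripts to be compared between mice with and without mature lymphocytes.

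Brain capillaries are tubes of endothelial cells sealed by tight junctions, and these junctions together with nutrient carriers and drug efflux pumps form the blood-brain barrier. Pericytes sit in the basement membrane around the capillaries, and smooth muscle cells wrap the arterioles. Pericytes and smooth muscle cells are called mural cells, and signals between them and the endothelium keep the barrier closed. In RNA from whole tissue, fewer vessel cells and less RNA per vessel cell cannot be told apart.

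Some features of the whole series touch the values below. Depth, estimated from the CPM step that stands for 1 read, ran from 31600000 to 46400000 reads per library, so that 3 reads equal 0.0646 to 0.0950 CPM. Rag1 transcripts went against the genotype label, with 0.246 ± 0.137 CPM in WT against 3.18 ± 0.750 CPM (SD, n = 3) in the other group, and those libraries are therefore called "labelled Rag1-/-" here. Every direction below rests on that label. Xist was at 172 and 177 CPM in WT 1 and WT 2 and at 2.93 CPM or less in the other 4 libraries. Ddx3y, a gene of the Y chromosome, had 0.283 and 0.215 CPM in WT 1 and WT 2 against 45.2 to 56.2 CPM in the others. By these transcripts WT 1 and WT 2 are female-like and the other 4 libraries male-like, so sex and genotype are partly confounded in every difference below. WT 3 also stood apart by pituitary transcripts, whose summed level was 942 CPM there against 233 to 316 CPM in the others. Brainstem region genes were present in all libraries, but Hoxb3 and Hoxb5 were at 0.412 and 0.855 CPM in Rag1-/- 2, against at least 2.501 and 4.77 CPM elsewhere. Many differences are given below with and without WT 3.

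All 12 defining vessel markers were detected in every library, so the tissue held endothelium, pericytes and smooth muscle. Divided by the length of the longest coding transcript, the mean level was highest for Slc2a1, the glucose carrier of the barrier, at 65.5 CPM per kilobase. Ly6c1, a surface protein of endothelium, followed at 62.1 CPM per kilobase, and the 2 do not differ beyond their spread over the 6 libraries. Vtn, the pericyte matrix protein vitronectin, was at 40.9 CPM per kilobase. Ly6a, Itm2a, Cldn5, Rgs5 and Mfsd2a came next, between 24.4 and 29.8 CPM per kilobase, and neighbours among them overlapped. At the bottom stood Anpep, a pericyte aminopeptidase, at 0.806 CPM per kilobase, and Esm1, a proteoglycan secreted by the tip cells of sprouting vessels, at 0.300 CPM per kilobase. The median was 7.51 CPM per kilobase over the endothelial genes and 4.06 CPM per kilobase over the mural genes.

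**Figure D1:**
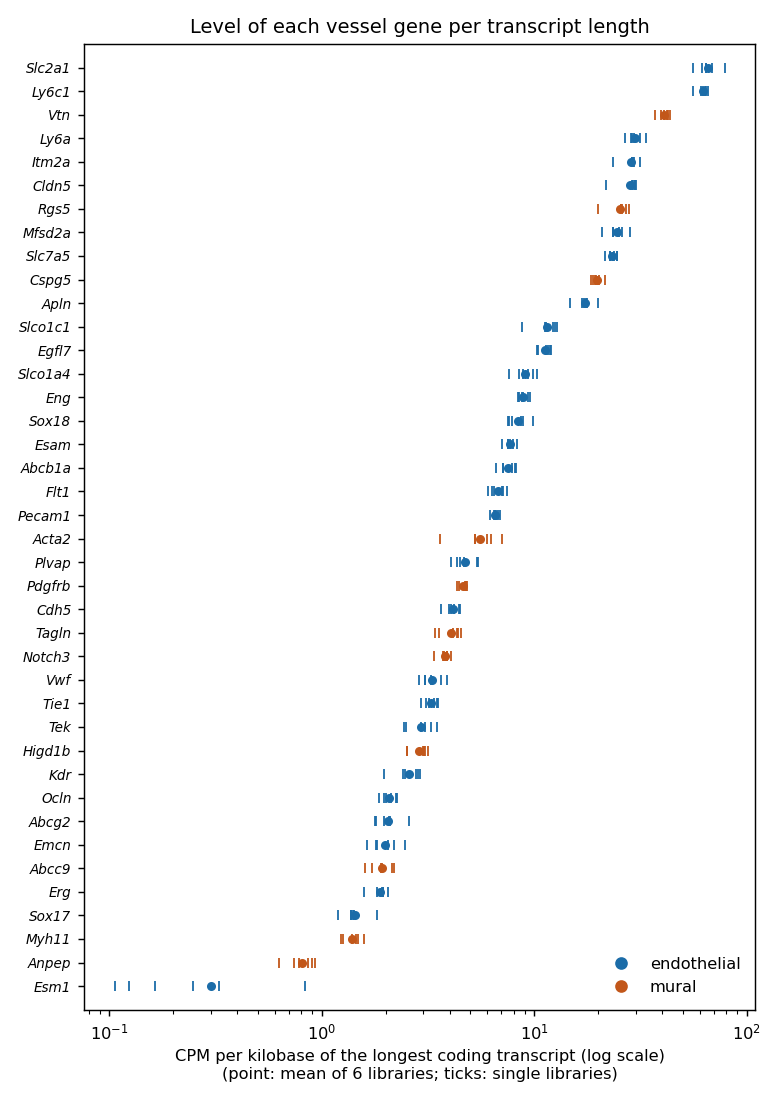
Mean CPM per kilobase of the longest coding transcript for each of the 40 vessel genes, on a log axis, with ticks for single libraries. The levels run from 0.300 for Esm1 to 65.5 for Slc2a1, and the ticks of Esm1 are spread most widely.

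Vessel genes varied little between mice. The coefficient of variation of CPM over the 6 libraries had a median of 9.58% for the endothelial and 10.05% for the mural genes. It was lowest for Pecam1, at 3.99%. Acta2, the smooth muscle actin, had 21.1%, and only Esm1 exceeded it, with 91.6%.

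The genotypes were first compared over the list. On log2(CPM + 0.1), a scale that understates the change of low genes, limma-trend was fitted to all 16762 genes whose mean reached 0.1 CPM. Endothelial genes had a median log2 fold change (labelled Rag1-/- minus WT) of -0.026, with values from -1.38 to 0.25 and 16 of 29 negative. For the mural genes the median was 0.0020, with values from -0.18 to 0.14 and 5 of 11 negative. Over all tested genes it was -0.051, and 67.7% were negative. The sign of the small endothelial median depended on the scaling, since it was 0.015 with quantile normalization and 0.016 with median-of-ratios rescaling, where the median of all genes was 0.0022 and -0.0092.

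The unadjusted threshold was a limma-trend p of 0.05 or less. By it, 3 of the 29 endothelial genes were lower in the labelled Rag1-/- libraries (Esm1, Ly6a and Cdh5) and 1 was higher (Sox18). The same threshold was met by 9.29% of all tested genes in the lower direction and by 2.27% in the higher. None of the 11 mural genes met it. With quantile normalization the background moved to 3.82% lower and 5.1% higher, and with median-of-ratios rescaling to 4.34% lower and 4.78% higher. Under either of these, 1 endothelial gene was lower (Esm1) and 2 were higher (Sox18 and Mfsd2a). After Benjamini-Hochberg adjustment over all tested genes, limma-trend called 0 of the 40 vessel genes at an adjusted p under 0.05, beside 4 at the unadjusted threshold. The adjusted threshold was passed by 0.0477% of all tested genes (0.0358% lower and 0.0119% higher), and the smallest adjusted p was 0.340 among the endothelial and 0.523 among the mural genes.

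Counted by overlap, 4 endothelial genes were lower in all labelled Rag1-/- libraries than in any WT library (Esm1, Cdh5, Ly6a and Pecam1), and Sox18 was higher in all of them. Among all tested genes, 14.4% were separated in the lower and 3.98% in the higher direction. No mural gene was separated. The precision of these differences can be read from their intervals. The 95% interval lay within 1.5-fold in either direction for 28 of 29 endothelial genes, all but Esm1, and for 10 of 11 mural genes, all but Acta2. Over all tested genes this held for 77.2%.

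**Figure D2:**
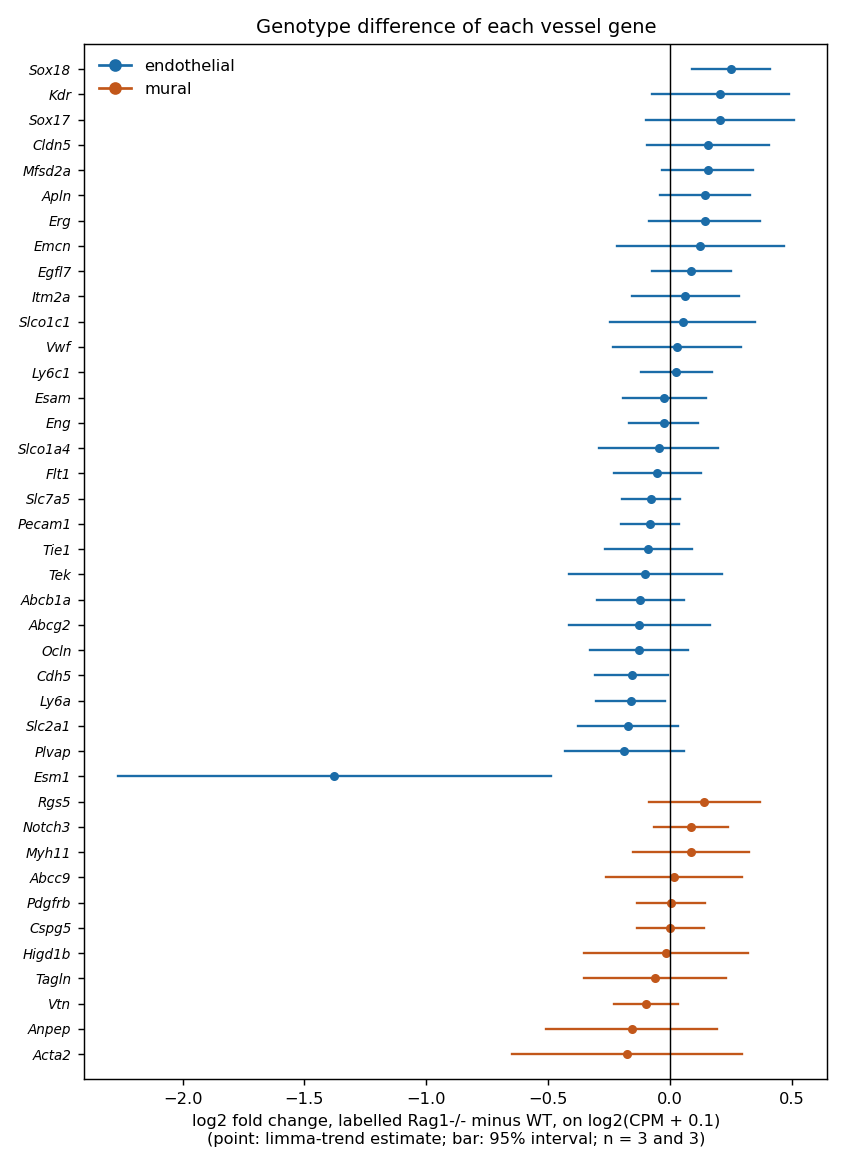
Log2 fold change of each vessel gene, labelled Rag1-/- minus WT on log2(CPM + 0.1), with the limma-trend estimate as a point and its 95% interval as a bar (n = 3 and 3). Esm1, at -1.38, is set apart from the other genes, which lie between -0.19 and 0.25.

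Esm1 (chromosome 13, 113209659 to 113218104, plus strand, mm10) had the largest difference of the list. Its level was 0.684, 0.517 and 1.75 CPM in WT 1, 2 and 3, and 0.260, 0.222 and 0.342 CPM in Rag1-/- 1, 2 and 3. The groups did not overlap, WT 3 was the highest library, and the labelled Rag1-/- libraries were close together. In reads, these values stand for an estimated 29, 24 and 61 reads in WT against 9, 7 and 12 reads, all above the 3-read level. Its mean was 0.985 ± 0.671 CPM in WT and 0.274 ± 0.0613 CPM in the other group (SD, n = 3). The log2 fold change was -1.38 (SE 0.39, limma-trend p = 0.00688, adjusted p = 0.340), which is 2.60-fold lower on that scale, and the exact permutation test gave p = 0.1, the smallest value for 3 against 3. Without WT 3 the difference was -0.91 (adjusted p = 0.314 by limma-trend). Esm1 had been singled out in earlier results of these libraries, so its direction here is no independent evidence.

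Promoter sequences are shown for Esm1 and for 4 genes that were low in WT 3 (Cldn5, Slco1c1, Itm2a and Rgs5, chosen after their values were seen), since these 5 show how the libraries differ. The 250 bases upstream of the start were taken from RefSeq on GRCm38.p6, the assembly that mm10 stands for. The window of Esm1 is chr13:113209409-113209658, plus strand.

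Esm1: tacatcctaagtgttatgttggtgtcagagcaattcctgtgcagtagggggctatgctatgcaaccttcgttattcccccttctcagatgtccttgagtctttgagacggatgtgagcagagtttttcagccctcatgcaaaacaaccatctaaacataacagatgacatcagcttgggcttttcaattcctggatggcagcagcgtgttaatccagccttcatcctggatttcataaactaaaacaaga

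Capitals in these windows mark the letters AGGAAG, searched on both strands. They are a narrow form of the site that ETS transcription factors such as Erg recognise, and other forms were not searched. The Esm1 window holds no AGGAAG.

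The junction and adhesion genes were Cldn5, Ocln, Cdh5, Pecam1 and Esam. Cdh5 (chromosome 8, 104101625 to 104144502, plus strand), which encodes VE-cadherin of the adherens junction, was at 17.7, 17.6 and 16.7 CPM in WT and at 14.6, 16.3 and 15.8 CPM in the labelled Rag1-/- libraries. Every WT library was higher, by a narrow margin between WT 3 and Rag1-/- 2. The log2 fold change was -0.16 (SE 0.065, limma-trend p = 0.0392, adjusted p = 0.415, exact permutation p = 0.1), or 1.12-fold lower. Without Rag1-/- 1, the lowest library, it was -0.11 and missed the unadjusted threshold.

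Pecam1, the adhesion molecule CD31, was at 23.8, 22.6 and 23.2 CPM in WT and at 21.2, 22.4 and 22.2 CPM in the other group. The groups were separated, but by less than the spread within each. Its log2 fold change was -0.08 (SE 0.053, adjusted p = 0.563 by limma-trend). Cldn5, the main sealing claudin of the barrier, was at 42.1, 41.3 and 30.7 CPM in WT and at 40.8, 42.3 and 42.7 CPM in the labelled Rag1-/- libraries. WT 3 alone was low, and the other 5 libraries were close together. The difference was 0.16 (95% interval -0.09 to 0.40, adjusted p = 0.596 by limma-trend), and it was 0.0078 without WT 3. The tight junction gene Ocln had a log2 fold change of -0.13 and Esam, another endothelial adhesion molecule, of -0.023, and both groups overlapped.

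Among the receptors, none of 5 met the unadjusted threshold, and 4 were negative, beside 67.7% of all tested genes. Flt1, a VEGF receptor that limits the growth signal, was at 51.1, 49.0 and 41.8 CPM in WT and at 43.6, 44.4 and 48.4 CPM in the labelled Rag1-/- libraries, and the groups overlapped. Its log2 fold change was -0.053 (SE 0.078, adjusted p = 0.815 by limma-trend). Kdr, the VEGF receptor that drives sprouting, was at 16.4, 14.3 and 11.6 CPM in WT and at 14.6, 17.2 and 16.8 CPM in the other group. It was lowest in WT 3 again, and the difference of 0.21 (adjusted p = 0.541 by limma-trend) was 0.07 without that library. Tek and Tie1, the receptor kinases of the angiopoietin pathway, and Eng, a TGF-beta co-receptor, differed by -0.10, -0.089 and -0.026. Without WT 3, Tek was at -0.26 and Flt1 at -0.14, and both met the unadjusted threshold, while Tie1 was at -0.15 and did not.

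The 7 transporter genes showed no common direction, with 5 negative and 2 positive and all groups overlapping. Slc2a1 was at 201, 222 and 257 CPM in WT and at 208, 183 and 210 CPM in the labelled Rag1-/- libraries. WT 3 was the highest library for this carrier, the opposite of its place for Cldn5. The log2 fold change was -0.17 (SE 0.090, adjusted p = 0.493 by limma-trend). It was -0.08 without WT 3, and -0.26 without WT 1, where it met the unadjusted threshold. Mfsd2a, the carrier of omega-3 lipids that also keeps transcytosis low, was at 44.95, 54.1 and 50.3 CPM in WT and at 60.3, 50.6 and 55.3 CPM in the other group. These overlapped, with a difference of 0.15 (SE 0.082, adjusted p = 0.496 by limma-trend). It met the unadjusted threshold without WT 2 and without Rag1-/- 2, at 0.22 in both, and was 0.083 without WT 1. The efflux pumps Abcb1a and Abcg2 had log2 fold changes of -0.12 and -0.13, the amino acid carrier Slc7a5 of -0.078 and the organic anion carrier Slco1a4 of -0.047. Slco1c1, the thyroid hormone carrier, differed by 0.052.

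Of the surface and secreted markers, 1 of 6 met the unadjusted threshold, in the lower direction, beside 9.29% of all tested genes. Ly6a (chromosome 15, 74994877 to 74998031, minus strand), the Sca-1 antigen, which interferons can induce, was at 32.1, 29.8 and 28.1 CPM in WT and at 25.6, 27.6 and 27.3 CPM in the labelled Rag1-/- libraries. The groups were separated by the gap between WT 3 and Rag1-/- 2. Its log2 fold change was -0.16 (SE 0.063, limma-trend p = 0.0309, adjusted p = 0.396, exact permutation p = 0.1). Ly6a missed the unadjusted threshold with either rescaling, and when WT 1, WT 2, Rag1-/- 1 or Rag1-/- 3 was left out. Ly6c1, its neighbour and relative, was at 53.8, 55.1 and 47.1 CPM in WT and at 51.4, 52.7 and 54.3 CPM in the other group, which overlapped. The difference was 0.026 (95% interval -0.12 to 0.17, adjusted p = 0.896 by limma-trend). Reads could be shared between close relatives of the Ly6 family, so both values are uncertain in that respect. Interferon response genes moved with these groups, since 16 of 20 were lower at the unadjusted threshold and their summed level was 134 to 144 CPM in WT against 96.9 to 103 CPM. Their part in the result for Ly6a was not tested. Vwf, Egfl7, Emcn and Itm2a, which encode a clotting factor carrier, a secreted protein of the vessel matrix, a sialomucin and a membrane protein, had log2 fold changes of 0.029, 0.088, 0.12 and 0.063. Itm2a was at -0.062 without WT 3. The value of Emcn rested on Rag1-/- 2, without which it was 0.00091, while it was 0.29 without Rag1-/- 1 and then met the unadjusted threshold.

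All 3 endothelial transcription factors had positive log2 fold changes, where 67.7% of all tested genes had negative ones. Of the 3, 1 met the unadjusted threshold, beside 2.27% of all tested genes in the higher direction. Sox18 (chromosome 2, 181669837 to 181671640, minus strand), a factor of vessel and lymphatic development, was at 12.3, 12.2 and 12.7 CPM in WT and at 14.1, 16.0 and 14.4 CPM in the other group. The WT libraries were within a narrow range and all lay under the labelled Rag1-/- libraries. The log2 fold change was 0.25 (SE 0.070, limma-trend p = 0.00657, adjusted p = 0.340, exact permutation p = 0.1), or 1.19-fold higher, and 0.27 without WT 3. Sox17, a related factor of arterial identity, was at 3.85, 4.46 and 4.54 CPM in WT and at 4.45, 5.89 and 4.58 CPM in the labelled Rag1-/- libraries. Rag1-/- 2 was high and the rest overlapped, with a difference of 0.20 (adjusted p = 0.565 by limma-trend) that was 0.079 without Rag1-/- 2. Erg, an ETS factor that maintains endothelial identity, differed by 0.14 (adjusted p = 0.595 by limma-trend), and by 0.060 without WT 3. Summed over the 3 genes, the level was 22.1 to 23.0 CPM in WT and 25.1 to 28.1 CPM in the labelled Rag1-/- libraries.

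The other genes of sprouting or leaky vessels did not meet the unadjusted threshold. Plvap, the diaphragm protein of fenestrated capillaries, was at 8.59, 10.8 and 10.7 CPM in WT and at 8.06, 9.31 and 8.91 CPM in the other group. WT 1 overlapped the labelled Rag1-/- libraries, and the difference was -0.19 (SE 0.11, adjusted p = 0.522 by limma-trend). Apln, the apelin ligand, had a log2 fold change of 0.14, opposite in sign, and 0.067 without WT 3. Its level was 55.9, 52.9 and 46.5 CPM in WT and 62.7, 53.7 and 55.1 CPM in the labelled Rag1-/- libraries, with overlap.

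**Figure D3:**
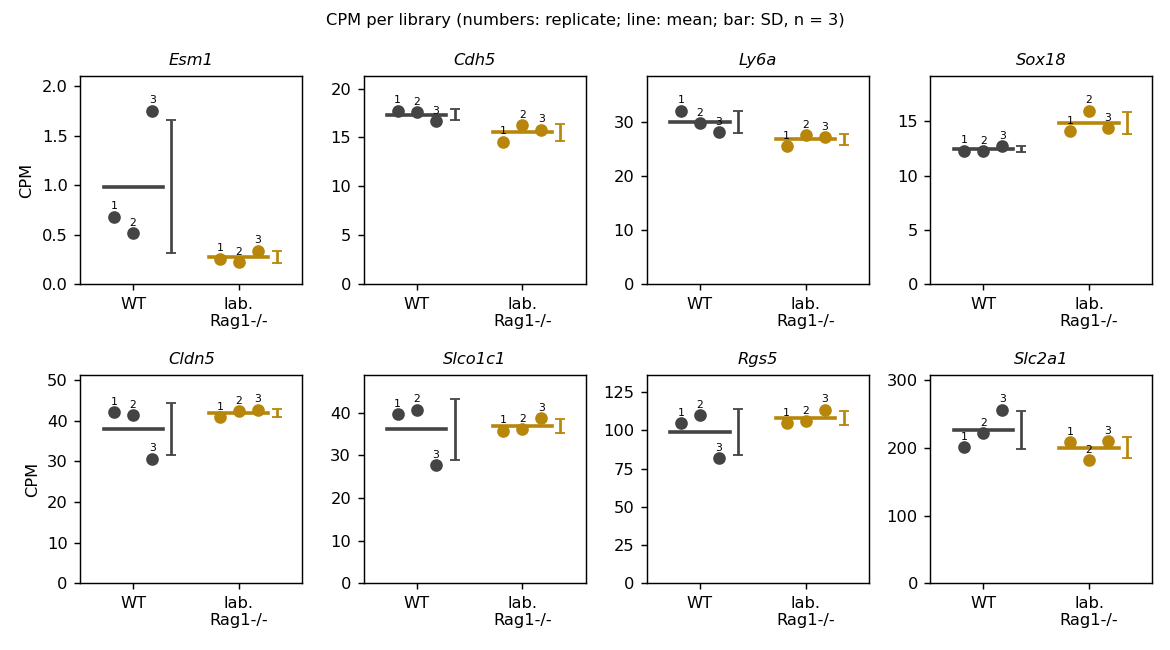
CPM of 8 vessel genes in each library on axes that start at 0, with replicate numbers, the mean as a line and the SD as a bar (n = 3). Esm1, Cdh5 and Ly6a are lower and Sox18 is higher in every labelled Rag1-/- library, while Cldn5, Slco1c1 and Rgs5 have their lowest value in WT 3 and Slc2a1 its highest.

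Among the mural genes, no pericyte gene met the unadjusted threshold, and all of them overlapped between the groups. Pdgfrb, the receptor that recruits pericytes, was at 25.7, 26.1 and 23.5 CPM in WT and at 23.8, 25.7 and 25.9 CPM in the labelled Rag1-/- libraries. The groups overlapped almost completely, and the difference was 0.0034 (95% interval -0.14 to 0.14, adjusted p = 0.986 by limma-trend). Rgs5, a G protein regulator abundant in pericytes, was at 105, 110 and 81.7 CPM in WT and at 105, 106 and 114 CPM in the other group, again with WT 3 alone low. Its log2 fold change was 0.14 (SE 0.10, adjusted p = 0.598 by limma-trend), and 0.0099 without WT 3.

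Vtn was at 71.4, 73.8 and 76.1 CPM in WT and at 64.2, 73.9 and 68.6 CPM in the labelled Rag1-/- libraries, with a difference of -0.10 (SE 0.057, adjusted p = 0.523 by limma-trend). Rag1-/- 2 fell within the WT range, so the groups overlapped. Notch3, the receptor that maintains mural cells, was at 27.0, 31.0 and 30.2 CPM in WT and at 29.7, 31.2 and 32.6 CPM in the other group, with a difference of 0.09 and overlap, or 0.027 without WT 1. Anpep was at 2.95, 3.27 and 3.42 CPM in WT and at 2.80, 3.52 and 2.39 CPM in the labelled Rag1-/- libraries, where the highest and the lowest value of the gene are both found. The difference of -0.16 ran from -0.031 without Rag1-/- 3 to -0.30 without Rag1-/- 2. Higd1b and Abcc9, a pericyte marker and a potassium channel subunit, differed by -0.018 and 0.017, and by -0.11 and -0.10 without WT 3.

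No smooth muscle gene met the unadjusted threshold, and Rag1-/- 1 was the lowest library for Acta2 and Tagln. Acta2 was at 10.7, 14.3 and 10.7 CPM in WT and at 7.32, 12.8 and 12.2 CPM in the labelled Rag1-/- libraries. Rag1-/- 1 was low and WT 2 high, the groups overlapped, and the difference was -0.18 (95% interval -0.65 to 0.30, adjusted p = 0.762 by limma-trend). Tagln, an actin-binding protein of contractile cells, was at 5.67, 6.97 and 7.21 CPM in WT and at 5.45, 6.64 and 6.93 CPM in the other group. Myh11, the smooth muscle myosin, was at 8.03, 9.44 and 9.03 CPM in WT and at 8.24, 9.68 and 10.3 CPM in the labelled Rag1-/- libraries. Both overlapped, with log2 fold changes of -0.060 and 0.086. The summed level of the 3 genes was 21.0 CPM in Rag1-/- 1 and 24.4 to 30.7 CPM in the other libraries.

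Cspg5, which the list counts as mural, is known as a neuroglial proteoglycan gene, and the proteoglycan of pericytes (NG2) is Cspg4. It was at 153, 151 and 158 CPM in WT and at 145, 170 and 149 CPM in the labelled Rag1-/- libraries, with a difference of 0.0020. Without it the mural median was -0.0071 over 10 genes. Cspg4 itself was at 31.9, 33.0 and 30.8 CPM in WT and at 27.0, 29.7 and 30.5 CPM in the labelled Rag1-/- libraries. It was lower in each of them, with a log2 fold change of -0.14 (SE 0.060, adjusted p = 0.432 by limma-trend), and it is also expressed by oligodendrocyte precursors. Kcnj8, a pericyte potassium channel gene, was at 6.42, 5.60 and 5.03 CPM in WT and at 6.04, 7.10 and 6.21 CPM in the other group, with overlap and a difference of 0.18 (adjusted p = 0.556 by limma-trend), or 0.099 without WT 3.

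Endothelial and mural genes were then compared within each library, as the mean over the class of each gene's deviation from its mean over the 6 libraries (log2). The endothelial value was 0.046, 0.066 and -0.045 in WT 1, 2 and 3, and -0.085, -0.0062 and 0.025 in Rag1-/- 1, 2 and 3. The mural value was -0.042, 0.11 and -0.042 in WT, and -0.12, 0.074 and 0.024 in the other group. Both classes overlapped between the genotypes, and over all members both were lowest in Rag1-/- 1 and highest in WT 2. The endothelial order depended on Esm1. Without it, the other 28 genes gave 0.034, 0.067 and -0.10 in WT and -0.062, 0.026 and 0.041 in the labelled Rag1-/- libraries, so that WT 3 was the lowest. The endothelial value minus the mural value was 0.089, -0.043 and -0.0028 in WT and 0.036, -0.080 and 0.00039 in the labelled Rag1-/- libraries. These also overlapped, with means of 0.014 and -0.014 against SDs of 0.067 and 0.059 (n = 3). Without Esm1 the direction turned, to means of -0.0094 and 0.0094 against SDs of 0.075 and 0.054 (n = 3). The difference between the class medians of the log2 fold changes was -0.028, and it was 0.031 without Rag1-/- 2.

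**Figure D4:**
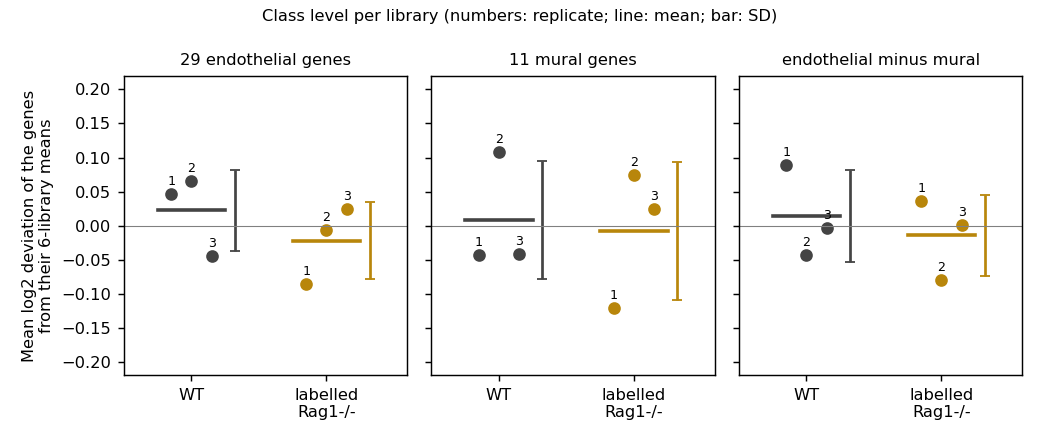
Mean log2 deviation of the 29 endothelial and 11 mural genes from their 6-library means, and the difference of the classes, in each library, with replicate numbers, group means as lines and SDs as bars (n = 3). In all 3 panels the points of the genotypes overlap. Rag1-/- 1 is the lowest library for both classes with Esm1 included, and without Esm1 the lowest endothelial value is that of WT 3 (-0.10).

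Part of the list set WT 3 apart from the other libraries. WT 3 was the lowest of the 6 libraries for 15 of the 40 genes, 11 endothelial and 4 mural, against 15.7% of all tested genes. Rag1-/- 1 was the lowest for 10 endothelial and 4 mural genes, against 24.9% of all tested genes. Relative to the mean of the other 5 libraries, WT 3 had 72.7% of Slco1c1, 73.3% of Kdr, 73.3% of Cldn5, 75.8% of Rgs5 and 79.0% of Itm2a. It had 125% of Slc2a1 and 433% of Esm1. Slco1c1 was at 39.7, 40.7 and 27.8 CPM in WT and at 35.8, 36.2 and 38.7 CPM in the labelled Rag1-/- libraries. Itm2a was at 50.8, 55.0 and 40.8 CPM in WT and at 50.1, 50.2 and 51.6 CPM in the other group. For both, WT 3 lay under all other libraries, which were near each other. Among the labelled Rag1-/- libraries, the highest was 1.05 times the lowest for Cldn5, 1.08 times for Slco1c1, 1.03 times for Itm2a and 1.08 times for Rgs5, while in WT these ratios were 1.37, 1.47, 1.35 and 1.35. Slco1c1 and Itm2a were singled out after their values were seen.

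WT 3 also differed in transcripts of other tissues. All 9 tested pituitary genes had their highest level in WT 3, where Gh was at 381 CPM and Pomc at 246 CPM, against at most 43.8 and 3.19 CPM elsewhere. Prl was at 19.2 CPM in WT 3 and was listed at the minimum of 0.0001 CPM in Rag1-/- 1 and Rag1-/- 3. WT 2 held lower levels of these transcripts, with Prl at 8.49 CPM and Gh at 43.8 CPM. Red blood cell transcripts summed to 1882 CPM in WT 3 and to 647 to 1441 CPM in the others, and fibroblast transcripts to 443 CPM against 287 to 397 CPM. Choroid plexus transcripts, which were at 991 and 1247 CPM in WT 1 and WT 2, summed to 494 CPM in WT 3 and to 562 to 643 CPM in the labelled Rag1-/- libraries. Marrow granulocyte transcripts summed to 5.90, 13.1 and 19.3 CPM in WT and to 3.47 to 6.26 CPM in the other group. The part of these transcripts or of the low Xist of WT 3 in the values of Cldn5, Slco1c1, Rgs5, Itm2a and Esm1 was not tested.

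The windows upstream of the 4 chosen genes were chr16:18776597-18776846 (plus strand) for Cldn5, chr6:141524104-141524353 (plus strand) for Slco1c1, chrX:107403361-107403610 (minus strand) for Itm2a and chr1:169655251-169655500 (plus strand) for Rgs5. Kdr, which was also low in WT 3, was not chosen, and its window holds no AGGAAG.

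Cldn5: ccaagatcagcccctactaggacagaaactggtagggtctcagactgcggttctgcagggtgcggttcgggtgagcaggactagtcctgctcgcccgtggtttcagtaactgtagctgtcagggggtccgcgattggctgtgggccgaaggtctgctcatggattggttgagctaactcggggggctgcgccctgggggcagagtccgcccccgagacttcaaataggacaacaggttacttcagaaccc

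Slco1c1: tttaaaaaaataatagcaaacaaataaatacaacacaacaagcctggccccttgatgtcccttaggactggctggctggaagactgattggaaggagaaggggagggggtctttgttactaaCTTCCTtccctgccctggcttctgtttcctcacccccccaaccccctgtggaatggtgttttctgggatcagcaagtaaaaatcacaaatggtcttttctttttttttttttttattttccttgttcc

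Itm2a: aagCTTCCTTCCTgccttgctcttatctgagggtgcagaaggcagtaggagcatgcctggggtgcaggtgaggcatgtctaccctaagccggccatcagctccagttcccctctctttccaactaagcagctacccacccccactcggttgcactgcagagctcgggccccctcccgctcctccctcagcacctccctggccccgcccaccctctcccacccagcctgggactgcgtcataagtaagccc

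Rgs5: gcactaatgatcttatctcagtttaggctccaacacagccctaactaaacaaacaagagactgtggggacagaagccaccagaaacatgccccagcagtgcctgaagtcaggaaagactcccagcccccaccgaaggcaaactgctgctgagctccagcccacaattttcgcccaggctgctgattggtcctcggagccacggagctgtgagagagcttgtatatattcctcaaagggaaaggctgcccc

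The letters AGGAAG were found once in the Slco1c1 window, on the opposite strand and beginning 128 bases before the start, and in 2 overlapping copies in the Itm2a window, the first 247 bases before the start. The Cldn5 and Rgs5 windows hold no AGGAAG, so the 4 genes do not share these letters, and other forms of the ETS site were not searched. In all, 26 of the 40 genes were matched in the RefSeq promoter table, 23 of them with a start within 100 bases of the deposited one. Among these 23, AGGAAG was in 9 of 18 endothelial and 0 of 5 mural windows, and in 29.5% of all 32851 windows of the same length. The letters ACAAAG, a form of the SOX site, were in 4 of 18 endothelial and 0 of 5 mural windows, against 16.5% of all windows. The interferon-stimulated response element (2.98% of all windows), the gamma-activated site TTCNNNGAA (7.02%) and the CArG box of smooth muscle genes (1.47%) were in none of the 23. The CArG box was searched in a single strict form, and looser forms were not searched. Tagln and Myh11 had no matched window, so Acta2 was the only smooth muscle gene examined. Whether its window holds a looser CArG box was therefore not tested. All these matches describe letters in a window, not bound sites.

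Leaving out WT 3 changed which vessel genes met the unadjusted threshold. Endothelial genes then gave 9 lower (Abcb1a, Abcg2, Cdh5, Esm1, Flt1, Ly6a, Slco1a4, Slco1c1 and Tek) and 1 higher (Sox18), mural genes 0, and limma-trend gave 0 of the 40 an adjusted p under 0.05. The background in that comparison was 9.31% lower and 2.33% higher. Without WT 3, Abcb1a was at -0.19, Abcg2 at -0.25 and Slco1a4 at -0.18, against -0.12, -0.13 and -0.047 with it. Among these 10 genes only Slco1c1 changed its direction, from 0.052 to -0.12 (adjusted p = 0.423 by limma-trend). When the fit was given a term that marks the 2 libraries above 100 CPM of Xist, the genotype difference rested on WT 3 alone. In that fit 2 endothelial genes were lower (Esm1 and Slc2a1), 8 were higher (Apln, Cldn5, Erg, Itm2a, Kdr, Ly6c1, Slco1a4 and Slco1c1) and 1 mural gene was higher (Rgs5). The background was 12.3% lower and 3.96% higher. In that fit the log2 fold change was 0.45 for Cldn5, -2.32 for Esm1, 0.40 for Rgs5 and 0.41 for Slco1c1. Xist level and WT 3 cannot be told apart in these values, because WT 3 is the only WT library with low Xist.

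Other single libraries also moved the counts, and over the 6 fits that left out 1 library the share of all genes called ran from 5.18% (without Rag1-/- 1) to 9.73% lower and from 1.45% to 2.35% higher. Without WT 2, without Rag1-/- 1 or without Rag1-/- 3, 1 endothelial gene was lower (Esm1), beside 9.73%, 5.18% and 7.53% of all genes. Without WT 1 the count of lower endothelial genes stayed at 3 but its members changed, to Esm1, Slc2a1 (-0.26) and Plvap (-0.29), and Cdh5 and Ly6a were no longer called, beside 7.09% of all genes lower. The count of higher endothelial genes was 3 without WT 1 (Sox18, Kdr and Apln), where 1.7% of all genes were higher. It was 2 without WT 2 and without Rag1-/- 2 (Sox18 and Mfsd2a, beside 2.35% and 2.04% of all genes) and 2 without Rag1-/- 1 (Sox18 and Emcn, beside 1.45%). Rgs5 was called higher without WT 2 (beside 2.35% of all genes), and Vtn was called lower without Rag1-/- 2 (beside 8.23%). Esm1 and Sox18 met the unadjusted threshold in each of the 6 fits that left out 1 library.

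**Figure D5:**
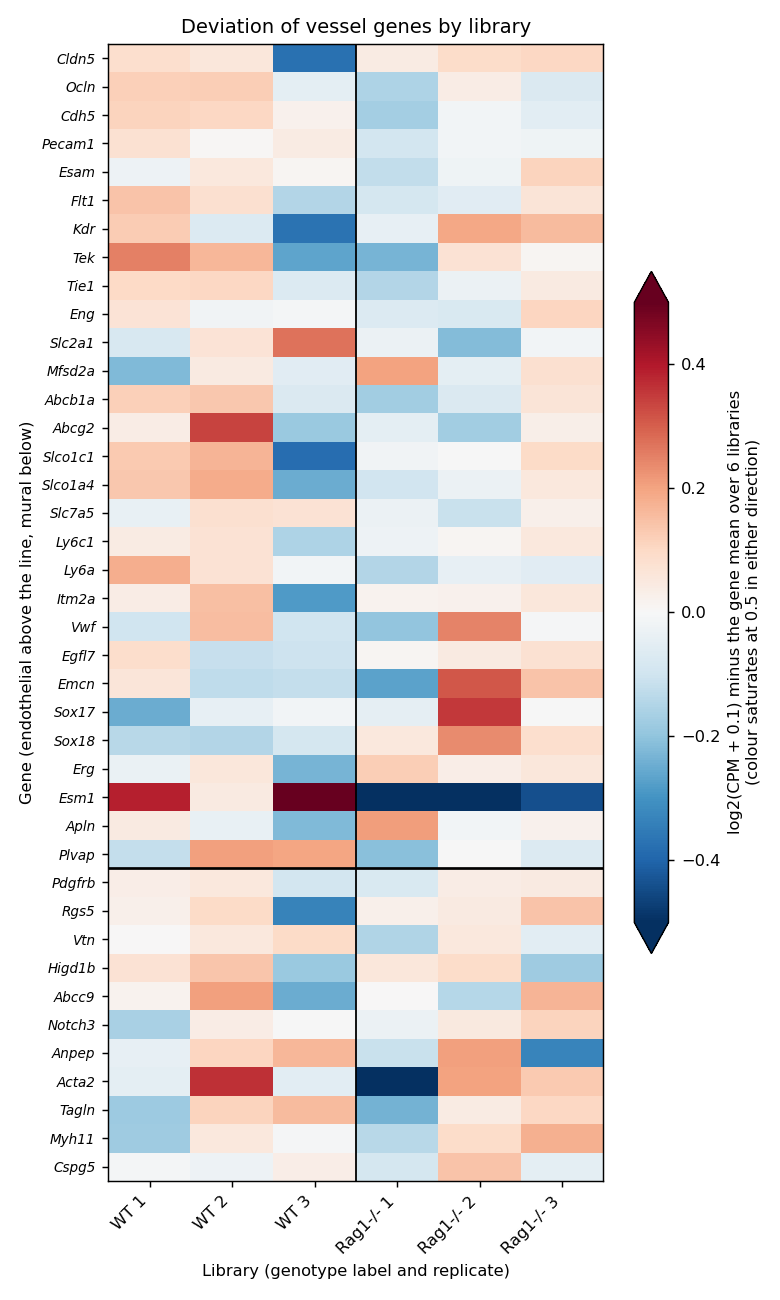
Heat map of log2(CPM + 0.1) minus the gene's mean over the 6 libraries, for 29 endothelial genes (above the line) and 11 mural genes (below), with the colour saturating at 0.5 in either direction. The column of WT 3 is blue for Cldn5, Kdr, Slco1c1, Itm2a and Rgs5 and red for Slc2a1 and Esm1, and Rag1-/- 1 is low for many genes of both classes.

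Beyond the list, 167 further genes of the vessel wall were looked up, of which 160 were in the table and 159 were tested. The median log2 fold change was -0.023. At the unadjusted threshold, 14 of the 159 were lower and 5 higher in the labelled Rag1-/- libraries, beside 9.29% and 2.27% of all genes. With all libraries none had an adjusted p under 0.05 by limma-trend, and 19 met the unadjusted threshold. Tfrc passed the adjusted threshold without WT 2 and without WT 3, and Tfrc and Angptl4 passed it with a model term for the libraries with high Xist (the Xist term), where the genotype difference rests on WT 3 as the sole WT library with low Xist. With quantile normalization or median-of-ratios rescaling the counts were 7 lower and 13 higher, while the shares of all genes also moved, to 3.82% lower and 5.1% higher with the former and to 4.34% and 4.78% with the latter. Without WT 1 there were 9 lower (7.09% of all genes), without Rag1-/- 1 there were 6 (5.18%), and without Rag1-/- 2 there were 8 higher (2.04%). By group, 4 of 18 other barrier transporters were lower and 1 higher, 3 of 12 genes of VEGF, angiopoietin and apelin signalling were lower, and 2 of 14 basement membrane genes (Lama5 and Lamb1) and 2 of 20 other pericyte genes were lower. Of 16 other junction genes 1 was lower and 2 were higher, of 16 Wnt genes 1 was lower and 1 higher, of 32 other endothelial markers 1 was lower, and of 13 genes of PDGF, TGF-beta and Notch signalling 1 was higher. Of 18 other smooth muscle genes, 0 were called.

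Tfrc, the transferrin receptor that carries iron across the barrier and is also found on many other cells, had the smallest p of these genes. It was at 86.5, 96.1 and 75.7 CPM in WT and at 131, 123 and 135 CPM in the labelled Rag1-/- libraries. The groups were far apart, with a log2 fold change of 0.59 (SE 0.081, adjusted p = 0.0735 by limma-trend). Its log2 fold change was 0.67 without WT 2 (adjusted p = 0.0220 by limma-trend), 0.50 without WT 3 (adjusted p = 0.0281 by limma-trend) and 0.77 with the Xist term (adjusted p = 0.00993 by limma-trend). Over all alternatives the adjusted p by limma-trend ran from 0.00993 to 0.479. Foxq1, a transcription factor gene of brain endothelium, was at 4.70, 4.42 and 3.65 CPM in WT and at 5.60, 5.70 and 5.47 CPM in the other group, all of them higher, with a difference of 0.39 (adjusted p = 0.340 by limma-trend). Hes1, a Notch target, was at 4.86, 4.57 and 4.60 CPM in WT and at 5.75, 5.61 and 5.50 CPM in the labelled Rag1-/- libraries, all of them higher, with a difference of 0.26 (adjusted p = 0.370 by limma-trend). The junction genes Cldn11 and Jam2 were also separated upward. Cldn11, also a claudin of oligodendrocytes, was at 964, 1014 and 908 CPM in WT and at 1073, 1108 and 1155 CPM in the other group, a difference of 0.21 (adjusted p = 0.331 by limma-trend). Oligodendrocyte genes moved the same way, with 9 of 10 higher at the unadjusted threshold, beside 2.27% of all tested genes. Their summed level was 20755 to 23996 CPM in WT against 26695 to 27924 CPM. Their part in the values of Cldn11 and Tfrc was not tested.

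Angptl4 encodes a secreted regulator of lipoprotein lipase. It was at 3.35, 2.54 and 5.69 CPM in WT and at 1.99, 2.06 and 2.19 CPM in the labelled Rag1-/- libraries, with WT 3 highest as for Esm1. Its log2 fold change was -0.78 (SE 0.25, adjusted p = 0.359 by limma-trend), and -0.47 without WT 3. Pla1a, a phospholipase gene, was at 1.32, 1.27 and 1.44 CPM in WT and at 0.780, 1.08 and 0.740 CPM in the other group. Those values did not overlap, and the difference was -0.59 (adjusted p = 0.353 by limma-trend), and -0.55 without WT 3. Lrp6, a Wnt co-receptor, was at 51.6, 55.3 and 52.1 CPM in WT and at 46.4, 47.8 and 47.6 CPM in the labelled Rag1-/- libraries, a separation of small size with a log2 fold change of -0.16 (adjusted p = 0.335 by limma-trend). Nrp2, a co-receptor for VEGF and semaphorins, was at 34.4, 30.2 and 33.8 CPM in WT and at 28.3, 29.2 and 25.9 CPM in the other group, again with no overlap and a difference of -0.24 (adjusted p = 0.340 by limma-trend).

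Pltp, the phospholipid transfer protein, was at 73.9, 67.4 and 65.0 CPM in WT and at 56.9, 62.8 and 58.3 CPM in the labelled Rag1-/- libraries. Insr, the insulin receptor, was at 39.2, 39.996 and 38.2 CPM in WT and at 31.7, 35.7 and 37.0 CPM in the other group. Both were separated downward, with log2 fold changes of -0.21 and -0.17. Lrp8, a receptor of the LDL receptor family, was at 51.8, 44.99 and 52.1 CPM in WT and at 44.9, 43.3 and 42.4 CPM in the labelled Rag1-/- libraries. The tight junction gene Cgn was at 7.76, 7.87 and 8.45 CPM in WT and at 6.03, 7.10 and 6.99 CPM in the other group. They too were separated, with differences of -0.19 and -0.26, and the adjusted limma-trend p of these 4 genes ranged from 0.340 to 0.382. Lrp8 and Insr missed the unadjusted threshold under both rescalings and with ordinary per-gene variance. Cgn missed it with quantile normalization and Pltp with the Xist term. Lrp8, Insr and Cgn also missed it in some fits that left out a library.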

How the data were processed

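Total RNA of 6 brainstems was sequenced on an Illumina HiSeq. Alignment by the authors used STAR 2.5.3a and mm10, and counting used RefSeq transcripts in Partek Flow. The values deposited are CPM, in which each gene's count is divided by the library's size. The lowest value of every library is 0.0001. Strandedness is not given in the sources used here. Of low values, 85.6% to 87.1% were whole multiples of 1 read within 0.1 read, and therefore read counts could not be rebuilt and no test for counts was used. The listed genes hold 79.1% to 80.4% of the scaled total. Genes whose mean reached 0.1 CPM were tested on log2(CPM + 0.1) with limma-trend (limma 3.58.1, R 4.3.3), the kind of model the study names, with Benjamini-Hochberg adjustment over all tested genes. The code was tested on simulated data. Ends of genes are given 1 base before the deposited stop. Lengths are those of the longest coding GENCODE transcript.

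The vessel genes and further lists were chosen with earlier results of these data known, and no list was tested as a set. Named with values in every library were Esm1, members with an unadjusted p of at most 0.05, the 3 largest and 3 smallest log2 fold changes of each class, the 12 defining markers, Ly6a and Ly6c1, and of the further genes at most the 12 smallest p plus Cspg4 and Kcnj8. Outside this rule, Slco1c1, Itm2a, Apln and Cspg5 are also given by library, chosen after their values were seen. The defining markers were Cldn5, Pecam1, Cdh5, Flt1, Slc2a1, Mfsd2a, Pdgfrb, Rgs5, Acta2, Tagln, Myh11 and Vtn. Other marker lists (fibroblast, choroid plexus, pituitary, skeletal muscle, red blood cell, marrow granulocyte, interferon response, lymphocyte, astrocyte, microglia, oligodendrocyte and its precursor, neuron, brainstem region and forebrain) served only as values beside results. Alternatives were other pseudocounts, filters, scalings and variance models, a replicate block, an Xist term, trimmed lists, and leaving out each library.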

Additional observations from a re-analysis of the deposited data

How the results depend on the processing

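Depth limits Esm1, which rests on 7 to 61 estimated reads per library. With 3 mice per group, exact permutation p-values cannot fall below 0.1. The causes of the changes below were not tested. The 8 genes of the whole table with an adjusted limma-trend p under 0.05 became 4 with pseudocount 0.01, 4 with no filter, 4 with a minimum mean of 1 CPM, 5 with quantile normalization, 2 without the trend, 0 with ordinary per-gene variance in limma (beside 1772 genes at the unadjusted threshold in that fit), 134 with the Xist term, and 2 to 24 with a library left out (24 without WT 3). The unadjusted count of 1938 ranged from 1113 to 2025 with a library left out. Endothelial genes called lower (3) were 1 with quantile normalization, 1 with median-of-ratios rescaling and 1 with ordinary variance, beside 3.82%, 4.34% and 8.35% of all genes. With a library left out they were 1 to 9. Those called higher (1) were 2 with quantile normalization, 2 with median-of-ratios rescaling, 8 with the Xist term and 1 to 3 with a library left out. Mural genes ranged from 0 to 1 in each direction with a library left out. Further vascular genes called lower (14) were 7 with quantile normalization, 7 with median-of-ratios rescaling, 9 with ordinary variance and 6 to 14 with a library left out, and those called higher (5) were 13, 13, 8 and 5 to 8 in the same order and 17 with the Xist term. In the fit with ordinary variance, 8.35% of all genes were lower and 2.23% higher. With the Xist term the genotype difference rests on WT 3 alone, so no direction can be read from the count of further genes there. In that fit the endothelial median was 0.12 and the endothelial minus mural difference 0.071. With a library left out the endothelial median ranged from -0.085 to 0.011, the mural median from -0.068 to 0.043 and their difference from -0.068 to 0.031.

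Libraries with the same number had deviations that correlated across genes at 0.0926, -0.220 and -0.0183. These values cannot settle whether the numbers pair the samples, and the labels do not say. With the replicate block 3 genes of the whole table had an adjusted limma-trend p under 0.05. At the unadjusted threshold 1 endothelial gene was lower (Esm1) and 1 was higher (Sox18), beside 6.59% and 1.52% of all genes.

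Of the 4 vessel genes at an unadjusted p of at most 0.05, Sox18 missed it with the Xist term and Esm1 with ordinary variance, while Cdh5 and Ly6a missed it under both rescalings, the block, the Xist term and several omissions, and Ly6a also without the trend and with ordinary variance. Signs changed for some vessel genes that met no threshold with all libraries. With quantile normalization Esam was 0.027, Eng 0.015, Higd1b 0.075 and Tagln 0.0087, and with median-of-ratios rescaling Esam was 0.019, Eng 0.016 and Higd1b 0.023. With the Xist term Flt1 was 0.12, Tek 0.21, Tie1 0.025, Abcb1a 0.012, Abcg2 0.12, Slco1a4 0.23, Higd1b 0.18 and Cspg5 -0.032. With a library left out, Esam ranged from -0.085 to 0.032, Flt1 from -0.14 to 0.0049, Eng from -0.086 to 0.0058, Abcg2 from -0.25 to 0.011, Slco1c1 from -0.12 to 0.15, Slco1a4 from -0.18 to 0.034, Ly6c1 from -0.044 to 0.069, Itm2a from -0.062 to 0.15, Vwf from -0.089 to 0.13, Pdgfrb from -0.042 to 0.042, Higd1b from -0.11 to 0.066, Abcc9 from -0.10 to 0.12, Acta2 from -0.32 to 0.078, Tagln from -0.17 to 0.043 and Cspg5 from -0.068 to 0.047.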

Other observations

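Marker lists of other cells that stand beside no result above are given as summed CPM. Astrocyte genes (11 tested) were at 4557 to 4889 CPM in WT and 4906 to 5086 CPM in the labelled Rag1-/- libraries, with a median log2 fold change of 0.018. Microglia genes (10 tested) were at 332 to 359 CPM and 323 to 349 CPM, neuron genes (10 tested) at 6136 to 6824 CPM and 5999 to 6806 CPM, and oligodendrocyte precursor genes (8 tested) at 752 to 783 CPM and 783 to 850 CPM. Skeletal muscle genes (12 tested) were at 10.05 to 17.4 CPM in WT and 9.05 to 10.9 CPM in the other group. Lymphocyte genes, of which 4 of the 9 in the table were tested, summed to 1.72 to 2.62 CPM and 1.52 to 2.02 CPM. Forebrain genes (5 tested) were at 3.92 to 5.002 CPM in WT and 3.49 to 5.35 CPM in the labelled Rag1-/- libraries, against 44.3 to 109 CPM and 40.5 to 143 CPM for the 10 brainstem region genes.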
